A study of Homo sapiens with 12 samples.

Results

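The genes described here are those of the first steps of glycosylphosphatidylinositol (GPI) anchor synthesis. PIGA was the starting point, since it was lower with both oligonucleotides of the series, and its partners were added by function. The 10 genes named were PIGA, PIGC, PIGH, PIGP, PIGQ, PIGY, DPM2, PIGL, PIGW and PIGM. Of these, 9 were found by symbol among the 55771 genes of the deposited table, and PIGM was not analysed here. All 9 passed the filter on low values, as did 20454 genes in all. Since PIGA was picked for its values against control, those values are given as a description with no test.

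A GPI anchor is a glycolipid that holds certain proteins on the outer face of the cell membrane. It is built step by step in the endoplasmic reticulum on phosphatidylinositol, and it is attached to the finished protein by a transamidase. PIGA is the catalytic subunit of the enzyme complex that starts the pathway by adding N-acetylglucosamine to phosphatidylinositol, and it works with PIGC, PIGH, PIGP, PIGQ, PIGY and DPM2. PIGL then removes the acetyl group, PIGW adds an acyl chain to the inositol, and PIGM adds the first mannose. PIGA lies on the X chromosome, and its somatic loss in blood stem cells gives paroxysmal nocturnal haemoglobinuria, in which blood cells lack GPI-anchored proteins.

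The cells were KELLY, a long established line from a human neuroblastoma with MYCN amplification, and total RNA was sequenced as 12 libraries. There were 3 groups of 4 libraries, given the BPS2, the BPS1 or a control morpholino oligonucleotide, an uncharged antisense molecule. All groups, control included, received 50 nM of oligonucleotide paired with a DNA leash and carried by lipid, in 4% serum for 48 h, after 24 h of plating in 10% serum. The series text concerns transcripts that differ once the long NEAT1 isoform and the nuclear bodies built on it, paraspeckles, are raised. The BPS2 columns were matched through the sample titles, because those samples are called KPAS in their description field, and BPS1 replicate 3 is headed BSP1 in the table. All libraries are of 1 cell line. Nothing in the labels tells if replicate libraries are separate cultures, so the p-values rest on the spread between libraries, and that spread may be technical.

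The deposited values are normalized counts, and their totals were 29.6 to 33.3 M per library. The whole NEAT1 gene, whose isoforms the table does not separate, averaged 4262 ± 412 in BPS2 libraries, 2024 ± 420 in BPS1 libraries and 6879 ± 264 in control libraries (SD, n = 4 each). All 10 neuroblastoma markers looked for were detected, and MYCN lay between 71302 and 92957 in every library. BPS1 replicate 4 and control replicate 1 stood apart. Their deviations from the median of each gene had an SD over genes of 0.594 for BPS1 replicate 4 and 0.471 for control replicate 1 on the log2 scale, against 0.377 to 0.425 in the other libraries. The same libraries had the strongest rise of that deviation with transcript GC content, by Spearman's rho across genes, which are not independent replicates. It was 0.348 in BPS1 replicate 4 and 0.227 in control replicate 1. BPS2 replicates 3, 2 and 4 came next, at 0.210, 0.171 and 0.122, so control replicate 1 did not stand apart on this measure. All other libraries lay between -0.220 and -0.096. Results that rest on BPS1 replicate 4 or control replicate 1 are given with and without both. Once both are left out, rho is negative in every control and BPS1 library and positive in BPS2 replicates 2, 3 and 4. The part of GC content in results of that fit was not tested.

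Some markers of the line and some mitochondrial RNAs fell with the same oligonucleotides as PIGA, more of them with BPS1 than with BPS2. The 10 neuroblastoma markers summed to 233307 to 248655 in BPS2, 199853 to 257733 in BPS1 and 258824 to 311745 in control libraries, so every BPS2 and BPS1 library was below every control library. CHGA, at 70566 to 134935, and MYCN, at 71302 to 92957, made up most of these sums. Of the 10 markers 1 fell with BPS2 and 5 fell with BPS1 at an adjusted p under 0.05 in limma, where 0.386% of all genes fell with BPS2 and 4.32% with BPS1. Without the libraries that stood apart, 1 rose and 5 fell with BPS2 and 8 fell with BPS1. In that fit 5.78% of all genes rose and 3.76% fell with BPS2, and 7.33% fell with BPS1. The 13 mitochondrially encoded messages made up 7.10 to 7.38% of the total in BPS2, 6.46 to 6.83% in BPS1 and 7.07 to 7.99% in control libraries, with BPS1 below control in every library and BPS2 overlapping it. Of these 13, 2 fell with BPS2 and 6 fell with BPS1, or 3 and 9 without the libraries that stood apart. The shares of all genes in each fit are those given for the markers.

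Of 12 markers of other cell types, KRT5 was at 0 in 10 libraries and HBB at 0 in 7. The stromal markers PDGFRB, at 1785 to 3082, and COL1A1, at 699 to 1080, made up most of the level of the list. The whole list summed to 2931 to 3788 in BPS2, 3398 to 3623 in BPS1 and 2959 to 3904 in control libraries, which overlap. Of the 12 markers 8 were tested, and COL1A1 was the 1 that passed. It averaged 1021 ± 49.5 in BPS2, 864 ± 45.6 in BPS1 and 742 ± 34.9 in control libraries. It rose by 0.46 ± 0.07 with BPS2 (limma adjusted p = 0.00706), where 0.821% of all genes rose. PDGFRB averaged 2048 ± 364 in BPS2, 2546 ± 86.9 in BPS1 and 2553 ± 419 in control libraries. Its log2 fold change with BPS2 went the other way, at -0.32 ± 0.13, and did not pass (limma adjusted p = 0.340). The part of these marker and mitochondrial differences in the results on PIGA and the pathway was not tested.

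The promoter of PIGA is shown because PIGA was the member that differed most from control, and those of PIGC and DPM2 because they belong to the same enzyme complex and did not pass a test. Each window runs from 250 bases before to 50 bases after the annotated start, from RefSeq on GRCh38.p14, and 8 of the 10 genes named had one. All are on the minus strand of their chromosome and are written in the direction of the gene. The PIGA window is chrX:15335505-15335804, the PIGC window is chr1:172444020-172444319 and the DPM2 window is chr9:127937805-127938104. Capitals mark exact matches, on either strand, to the motifs searched.
PIGA: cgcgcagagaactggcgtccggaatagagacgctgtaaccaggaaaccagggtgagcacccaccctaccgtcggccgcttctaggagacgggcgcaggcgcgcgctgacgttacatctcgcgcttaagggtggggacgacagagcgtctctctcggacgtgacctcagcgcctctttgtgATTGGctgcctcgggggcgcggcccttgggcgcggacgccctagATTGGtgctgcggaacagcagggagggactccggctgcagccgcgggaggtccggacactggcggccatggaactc
PIGC: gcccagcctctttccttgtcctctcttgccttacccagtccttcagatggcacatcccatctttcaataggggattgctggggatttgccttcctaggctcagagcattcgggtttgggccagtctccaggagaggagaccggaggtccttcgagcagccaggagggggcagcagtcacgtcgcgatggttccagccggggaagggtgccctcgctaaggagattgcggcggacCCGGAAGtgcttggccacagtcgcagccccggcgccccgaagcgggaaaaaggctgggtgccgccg
DPM2: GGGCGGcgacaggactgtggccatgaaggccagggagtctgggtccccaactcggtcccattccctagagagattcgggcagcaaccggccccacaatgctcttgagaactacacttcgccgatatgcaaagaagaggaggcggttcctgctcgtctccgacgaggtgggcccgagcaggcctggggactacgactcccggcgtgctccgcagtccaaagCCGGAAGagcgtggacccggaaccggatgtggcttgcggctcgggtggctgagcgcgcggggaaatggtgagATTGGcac

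The letters searched were GGGCGG (the Sp1 GC box), CCGGAAG (an ETS core), CCAAT (the CCAAT box), CACGTG (the E-box), TGACGTCA (the CRE) and TATAAA (the TATA box), and no pair of matches in the windows shown overlapped. The PIGA window held 2 CCAAT boxes, both read as ATTGG, and none of the other motifs. A further RefSeq window of PIGA, chrX:15335474-15335773, which overlaps the one shown, held 1 GC box as well. CCAAT was present in 34.6% of 35116 promoter windows of this length. The PIGC window held 1 ETS core, a motif found in 10.3% of windows. The DPM2 window held 1 GC box, 1 ETS core and 1 CCAAT box, and the GC box was found in 45.0% of windows. GC content was 66.7% in the PIGA window with 33 CpG, 63.0% in the PIGC window with 18 CpG and 64.3% in the DPM2 window with 25 CpG, against a median of 58.7% over all windows. These matches describe the letters in the windows, and binding was not measured.

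PIGA (ENSG00000165195, chrX:15319451-15335580 on GRCh38, minus strand, 19 annotated transcripts) had normalized counts of 592, 618, 652 and 659 in BPS2 libraries, 861, 408, 507 and 406 in BPS1 libraries, and 1208, 1578, 1665 and 1220 in control libraries. Every BPS2 and BPS1 library was below every control library. The BPS2 libraries lay close together, and among BPS1 libraries replicate 1 was well above the other replicates. Means were 630 ± 31.2 in BPS2, 546 ± 216 in BPS1 and 1418 ± 238 in control (SD, n = 4 each), so that the BPS2 mean was 44.4% and the BPS1 mean 38.5% of the control mean. The log2 fold change was -1.15 ± 0.20 (SE) for BPS2 against control and -1.43 ± 0.20 for BPS1 against control. Ordered from the lowest fold change, PIGA held rank 115 of 20454 genes with BPS2 and rank 86 with BPS1.

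**Figure D1:**
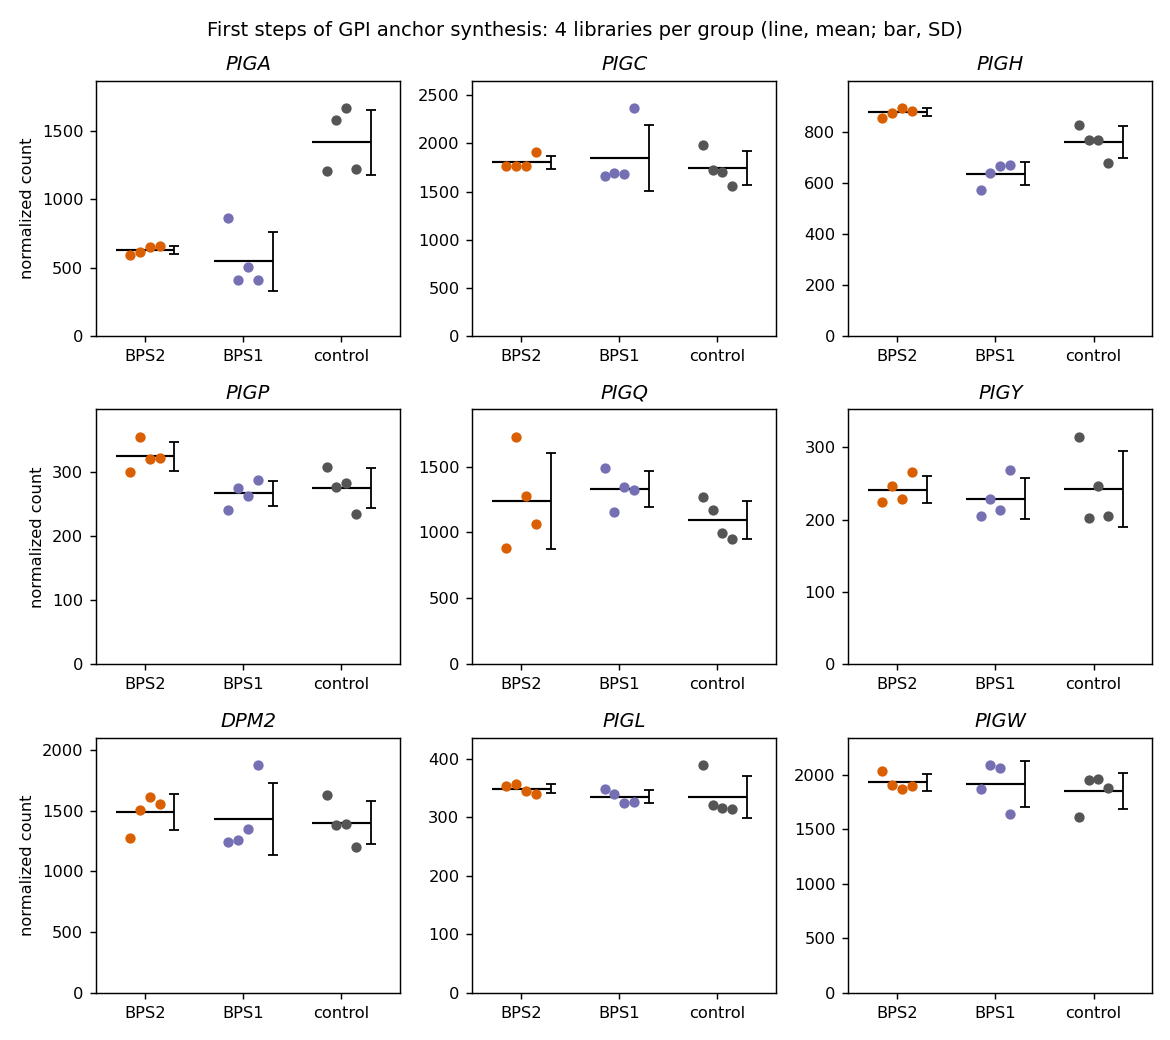
Normalized counts (y axes, from 0) of the 9 members in BPS2, BPS1 and control libraries. Points are libraries in replicate order, lines are means and bars are SDs. In the panel of PIGA all BPS2 and BPS1 points lie below the control points, while in the panels of PIGC, PIGQ, PIGY, DPM2, PIGL and PIGW the groups overlap.

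Leaving out single libraries moved the PIGA log2 fold change between -1.23 and -1.07 for BPS2 against control. For BPS1 against control it moved between -1.68 without BPS1 replicate 1 and -1.32 without BPS1 replicate 4. With control replicate 1 and BPS1 replicate 4 both left out, the values were -1.23 for BPS2 and -1.39 for BPS1. The PIGA row was not in whole reads in any library, as for nearly all genes with many transcripts, so the table does not give its read depth. Fewer copies of the RNA per cell and fewer cells with that RNA cannot be told apart in these bulk samples. By annotated position PIGA overlaps no other gene of the deposited table.

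The difference between the oligonucleotides was not used to pick PIGA and could be tested. PIGA was 0.28 ± 0.20 (SE) higher in BPS2 than in BPS1 on the log2 scale, with a 95% interval of -0.16 to 0.72 and a limma adjusted p of 0.547 over all genes tested. An exact two-sided permutation test over the 70 arrangements of the libraries gave p = 0.314, where the smallest possible is 0.0286. The groups overlapped through BPS1 replicate 1. Without that library the difference was 0.52 (adjusted p = 0.0593, limma), and without BPS1 replicate 4 it was 0.16. The interval does not show that the oligonucleotides acted alike on PIGA. The SD of PIGA on the log2 scale was 0.07 in BPS2, 0.51 in BPS1 and 0.24 in control libraries.

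Of the other 8 members, 0 passed at an adjusted p under 0.05 in limma against control with either oligonucleotide. At an unadjusted p under 0.05 there were 2 with BPS2, PIGH and PIGP, and 1 with BPS1, PIGH. Over all genes tested, 1.21% passed with BPS2 and 8.6% with BPS1, and 11.4% had an unadjusted p under 0.05 with BPS2 and 22.5% with BPS1. The log2 fold changes of the 8 genes lay between 0.01 (PIGY) and 0.24 (PIGP) with BPS2, with a median of 0.08. With BPS1 they lay between -0.26 (PIGH) and 0.28 (PIGQ), with a median of 0.01. The median over all genes tested was 0.00 in each comparison with control. Their 95% intervals reached from -0.29 to 0.51 with BPS2 and from -0.43 to 0.66 with BPS1, so none of them spanned a change of the size seen for PIGA.

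**Figure D2:**
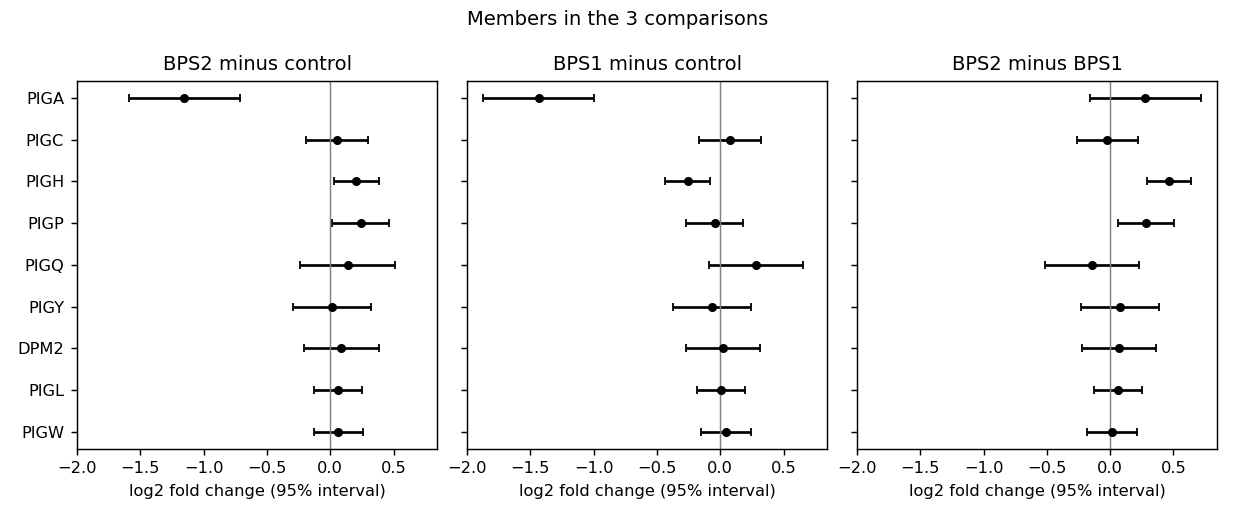
Log2 fold changes (x axes) of the 9 members for BPS2 minus control, BPS1 minus control and BPS2 minus BPS1. Points are estimates and bars their 95% intervals from the fit of all genes. PIGA stands at -1.15 and -1.43 against control, and PIGH stands at 0.46 between BPS2 and BPS1.

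PIGH, the subunit that binds PIGA closely, was the member that differed between the oligonucleotides. PIGH (ENSG00000100564, chr14:67581955-67600287, minus strand) had normalized counts of 854, 875, 892 and 882 in BPS2 libraries, 571, 638, 665 and 668 in BPS1 libraries, and 828, 767, 767 and 679 in control libraries. All BPS2 libraries were above all control libraries, and all BPS1 libraries were below them. PIGH was higher in BPS2 than in BPS1 by 0.46 ± 0.08 on the log2 scale (SE, limma adjusted p = 0.00626). It was the 1 member of 9 that passed in this comparison, in which 3.93% of all genes passed. The call held when any single library was left out, with differences of 0.41 to 0.49 and adjusted p of 0.00385 to 0.0253. Against control the log2 fold change of PIGH was 0.21 ± 0.08 with BPS2 (adjusted p = 0.336) and -0.26 ± 0.08 with BPS1 (adjusted p = 0.0714), means being 876 ± 15.8 in BPS2, 636 ± 45.3 in BPS1 and 760 ± 61.4 in control. With BPS1 it passed without control replicate 4 (adjusted p = 0.0445) or without BPS1 replicate 4 (adjusted p = 0.0441). PLEKHH1 overlaps PIGH on the other strand and averaged 343 ± 58.1 in BPS2, 329 ± 50.3 in BPS1 and 304 ± 26.3 in control libraries.

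Counts of members whose groups did not overlap stand beside the same count over all genes. PIGA, picked for that pattern, was lower without overlap with both oligonucleotides, as were 4.23% of all genes with BPS2 and 6.81% with BPS1. Among the 8 partners, 1 was higher without overlap in BPS2 than in control (PIGH), as were 5.41% of all genes. With BPS1, 1 was lower without overlap (PIGH), against the same 6.81%. Between BPS2 and BPS1, 2 were higher without overlap (PIGH and PIGP), as were 6.08% of all genes.

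PIGP, a small membrane subunit of the same complex, had 300, 355, 321 and 322 in BPS2 libraries, 241, 276, 263 and 288 in BPS1 libraries, and 308, 277, 283 and 234 in control libraries. The BPS2 libraries were all above the BPS1 libraries and overlapped the control libraries. The difference of BPS2 from BPS1 was 0.28 ± 0.10 on the log2 scale and did not pass (limma adjusted p = 0.172). It passed once control replicate 1 and BPS1 replicate 4 were both left out (0.32, adjusted p = 0.0434). PIGP differed from control by 0.24 ± 0.10 with BPS2 (adjusted p = 0.395) and -0.04 ± 0.10 with BPS1 (adjusted p = 0.858).

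PIGC, a membrane subunit, averaged 1802 ± 71.7 in BPS2, 1851 ± 342 in BPS1 and 1741 ± 177 in control libraries (SD, n = 4 each). Its BPS1 values were 1661, 1693, 1686 and 2364, so the last library, BPS1 replicate 4, made most of that spread. DPM2, shared by this complex and by dolichol-phosphate mannose synthase, averaged 1487 ± 149 in BPS2, 1432 ± 298 in BPS1 and 1401 ± 177 in control libraries. Its highest value, 1873, came from the same library. Against control, PIGC differed by 0.05 ± 0.11 with BPS2 and 0.08 ± 0.11 with BPS1, and DPM2 by 0.09 ± 0.14 with BPS2 and 0.02 ± 0.14 with BPS1, all on the log2 scale. The pseudogene PIGCP1, a near copy of PIGC whose reads counting could mix with it, averaged 139 ± 10.3 in BPS2, 146 ± 15.3 in BPS1 and 150 ± 21.7 in control libraries.

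PIGQ, a subunit thought to hold the complex together, had 881, 1725, 1273 and 1062 in BPS2 libraries, 1492, 1156, 1347 and 1321 in BPS1 libraries, and 1266, 1168, 994 and 953 in control libraries. The BPS2 libraries spanned the widest range, and all groups overlapped. Its log2 fold change was 0.14 ± 0.17 with BPS2 (adjusted p = 0.828) and 0.28 ± 0.17 with BPS1 (adjusted p = 0.372). PIGQ shares its strand with the overlapping genes NHLRC4 and Z98883.1, which averaged 34.0 ± 9.32 and 8.69 ± 4.04 in BPS2, 39.4 ± 5.61 and 9.42 ± 3.81 in BPS1, and 40.7 ± 8.43 and 12.7 ± 4.96 in control libraries.

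PIGY, the smallest subunit, is encoded on the same transcript as PYURF, and the annotation gives it a model of 217 bases inside PYURF on the same strand. How reads were split between these genes is uncertain, so they were also summed. PIGY averaged 241 ± 18.7 in BPS2, 229 ± 28.3 in BPS1 and 242 ± 52.1 in control libraries, and the sum with PYURF averaged 1669 ± 73.9 in BPS2, 1524 ± 201 in BPS1 and 1632 ± 222 in control libraries. The share of PIGY in that sum was 14.5% ± 0.931 in BPS2, 15.0% ± 0.848 in BPS1 and 14.8% ± 1.56 in control libraries. PIGY was the member whose row was in whole reads, and its lowest library, control replicate 4, had 196 reads with a 95% exact Poisson interval of 170 to 225, which covers counting error only.

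PIGL and PIGW, the enzymes that act next, passed in no comparison. PIGL averaged 349 ± 7.44 in BPS2, 335 ± 11.3 in BPS1 and 335 ± 36.0 in control libraries, and control replicate 1, at 389, was above the other control libraries. PIGW averaged 1931 ± 74.5 in BPS2, 1917 ± 207 in BPS1 and 1852 ± 165 in control libraries. Log2 fold changes against control were 0.06 ± 0.09 with BPS2 and 0.01 ± 0.09 with BPS1 for PIGL, and 0.06 ± 0.09 with BPS2 and 0.05 ± 0.09 with BPS1 for PIGW. Their 95% intervals were -0.13 to 0.25 with BPS2 and -0.18 to 0.19 with BPS1 for PIGL, and -0.13 to 0.26 with BPS2 and -0.15 to 0.24 with BPS1 for PIGW. NCOR1, which overlaps PIGL on the other strand over 995 bases, was higher in BPS1 than in control by 0.33 ± 0.08 (limma adjusted p = 0.0287), and this call was lost without control replicate 1 or 2 or BPS1 replicate 1, 2 or 3 (adjusted p up to 0.0889).

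Within each library, PIGA was also set against the mean log2 value of the other 8 members, as a description of how it moved apart from them. That difference was -0.32 ± 0.08 in BPS2, -0.50 ± 0.57 in BPS1 and 0.94 ± 0.29 in control libraries (SD, n = 4 each). It lay between -0.44 and -0.27 in BPS2, between -0.97 and 0.30 in BPS1 and between 0.56 and 1.19 in control. These values are not scaled by gene length, so only their change between groups can be read. Across the 12 libraries, which share their groups, Pearson's r with PIGA was between -0.36 (PIGC) and 0.13 (PIGH) for the 8 genes. After removing group means r lay between -0.46 (PIGH) and 0.23 (PIGQ), so PIGH stood at opposite ends of these ranges. PIGH changed sign, as did PIGQ, at -0.28 before, and PIGW, at -0.13 before and 0.19 after.

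The 36 other genes of the pathway were grouped by step, and all were tested. With BPS2 0 passed against control in limma, and 5 had an unadjusted p under 0.05. With BPS1 0 rose and 4 fell, and 9 had an unadjusted p under 0.05. Over all genes, 0.386% fell and 0.821% rose with BPS2, and 4.32% fell and 4.29% rose with BPS1, and the shares at an unadjusted p under 0.05 were the 11.4% and 22.5% given for the partners. The median log2 fold change of the 36 genes was 0.05 with BPS2 and -0.05 with BPS1, against 0.00 over all genes tested.

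**Figure D3:**
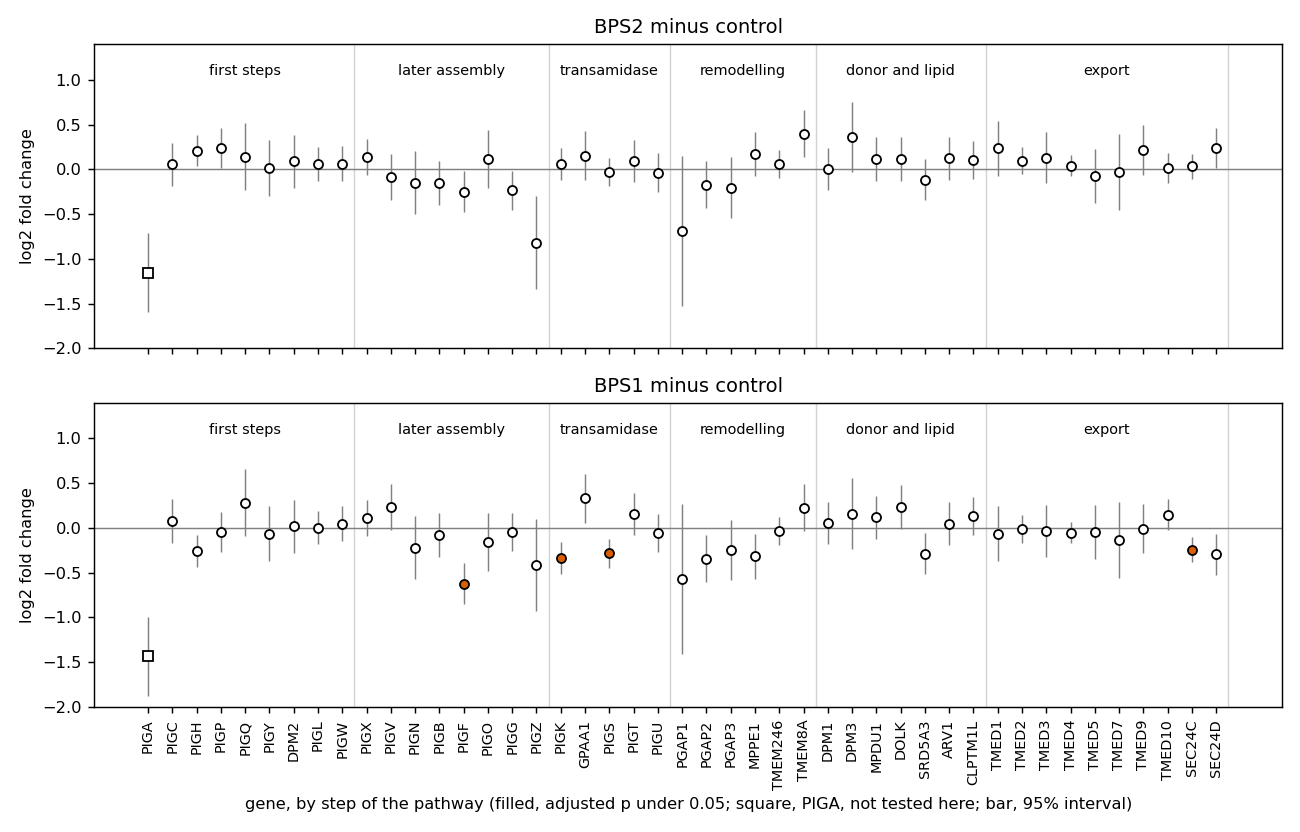
Log2 fold change (y axes) of each pathway gene against control, with BPS2 above and BPS1 below, in the order of the steps. Bars are 95% intervals, and filled points passed at an adjusted p under 0.05. PIGA, picked for its values against control, is drawn as an open square and is not marked for passing. No point is filled with BPS2, and PIGF, PIGK, PIGS and SEC24C are filled with BPS1.

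In later assembly, where mannose and ethanolamine phosphate are added, 1 of 8 genes fell with BPS1 and 0 passed with BPS2. Of all genes 4.32% fell with BPS1. PIGF, a partner of the enzymes that add ethanolamine phosphate, averaged 286 ± 33.0 in BPS2, 220 ± 21.6 in BPS1 and 338 ± 19.3 in control libraries. It fell by 0.62 on the log2 scale with BPS1 (SE 0.11, adjusted p = 0.00313), and leaving out any single library gave an adjusted p of 0.00417 to 0.0137. With BPS2 its log2 fold change was -0.25 ± 0.11 (adjusted p = 0.390). PIGX, the partner of PIGM, averaged 1443 ± 133 in BPS2, 1418 ± 129 in BPS1 and 1308 ± 90.2 in control libraries and passed in no comparison.

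Of the 5 transamidase subunits, 2 fell with BPS1, where 4.32% of all genes fell, and 0 passed with BPS2. PIGK, the catalytic subunit, averaged 772 ± 48.7 in BPS2, 584 ± 38.3 in BPS1 and 740 ± 52.0 in control libraries. Its log2 fold change was -0.34 ± 0.08 with BPS1 (adjusted p = 0.0230), and this call was lost without control replicate 2 or 3 or BPS1 replicate 1 or 3 (adjusted p up to 0.0759), and once the GC trend was removed (adjusted p = 0.112). PIGS averaged 2993 ± 120 in BPS2, 2516 ± 148 in BPS1 and 3066 ± 255 in control libraries, and fell by 0.28 with BPS1 (SE 0.07, adjusted p = 0.0315). That call was lost without control replicate 2, 3 or 4 or BPS1 replicate 1 or 2 (adjusted p up to 0.100). GPAA1, PIGT and PIGU did not pass, with log2 fold changes of 0.33, 0.16 and -0.06 with BPS1.

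Among the 6 genes of remodelling, which trims the anchor after attachment, 0 passed against control. PGAP1, the inositol deacylase, was the most variable, with 1365 ± 285 in BPS2, 1669 ± 835 in BPS1 and 2269 ± 742 in control libraries and log2 fold changes of -0.69 ± 0.39 with BPS2 (adjusted p = 0.548) and -0.57 ± 0.39 with BPS1 (adjusted p = 0.426). Leaving out single libraries moved these from -0.93 (without control replicate 1) to -0.52 (without control replicate 3) with BPS2, and from -0.84 (without BPS1 replicate 1) to -0.11 (without BPS1 replicate 4) with BPS1. Among the 7 genes of the mannose donor and lipid steps, 0 passed. DPM1, the catalytic subunit of dolichol-phosphate mannose synthase, averaged 1238 ± 89.8 in BPS2, 1288 ± 182 in BPS1 and 1239 ± 145 in control libraries. Among the 10 genes of export from the endoplasmic reticulum, the coat protein gene SEC24C fell by 0.24 with BPS1 (SE 0.07, adjusted p = 0.0387), averaging 6547 ± 336 in BPS2, 5422 ± 377 in BPS1 and 6402 ± 253 in control libraries. The SEC24C call was lost without any 1 control library, without BPS2 replicate 1, 2 or 3 and without BPS1 replicate 2 or 3 (adjusted p up to 0.117).

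Between BPS2 and BPS1, 4 of the 36 genes were higher in BPS2 and 0 were lower, where 2.3% of all genes were higher and 1.63% lower. The median difference was 0.09, against 0.00 over all genes. PIGK was higher by 0.40 ± 0.08 (adjusted p = 0.0159), and SEC24D, a coat protein like SEC24C, by 0.53 ± 0.10 (adjusted p = 0.0125). MPPE1, which removes an ethanolamine phosphate from the anchor, was higher by 0.49 ± 0.11 (adjusted p = 0.0296), a call lost without BPS2 replicate 3 or 4 or BPS1 replicate 1, 2 or 3 (adjusted p up to 0.100). SEC24C was higher by 0.27 ± 0.07 (adjusted p = 0.0351), a call lost without control replicate 2 or 3, any BPS2 library, or BPS1 replicate 2 or 3 (adjusted p up to 0.117). The call for PIGK was lost without BPS2 replicate 4 or BPS1 replicate 3 (adjusted p up to 0.0600), and that for SEC24D held without any single library.

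These counts depend on the libraries that stood apart. With control replicate 1 and BPS1 replicate 4 left out, 6 of the 36 genes rose and 1 fell with BPS2, 0 rose and 4 fell with BPS1, and 12 were higher and 1 lower in BPS2 than in BPS1. In that fit 5.78% of 20161 genes rose and 3.76% fell with BPS2, 6.42% rose and 7.33% fell with BPS1, and 10.5% were higher and 6.88% lower in BPS2 than in BPS1. The libraries kept had a GC rho of -0.220 to -0.109 in control, -0.161 to -0.096 in BPS1 and -0.159 to 0.210 in BPS2. The part of this difference in the counts was not tested. The 4 genes that fell with BPS1 were again PIGF, PIGK, PIGS and SEC24C. The gene that fell with BPS2 was PGAP1, by 0.93 on the log2 scale (adjusted p = 0.0110, limma), and PGAP1 was also the gene that was lower in BPS2 than in BPS1 (-0.57, adjusted p = 0.0492). The 6 that rose with BPS2 included TMEM8A, which cuts GPI-anchored proteins, by 0.37 (adjusted p = 0.0114), and DPM3, a subunit of dolichol-phosphate mannose synthase with DPM2, by 0.41 (adjusted p = 0.0406). Of the 8 partners of PIGA, 0 passed against control with either oligonucleotide in that fit too.

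GPI-anchored proteins carry the product of the pathway, and 54 of the 77 genes listed passed the filter. With BPS2 1 rose and 0 fell, with BPS1 3 rose and 4 fell, and the median log2 fold changes were -0.03 with BPS2 and -0.06 with BPS1, against 0.00 over all genes tested. Over all genes 0.821% rose and 0.386% fell with BPS2, and 4.29% rose and 4.32% fell with BPS1. At an unadjusted p under 0.05 there were 10 of the 54 with BPS2 and 16 with BPS1, where 11.4% and 22.5% of all genes had one. NT5E, a surface enzyme that makes adenosine, averaged 146 ± 28.7 in BPS2, 128 ± 21.8 in BPS1 and 76.9 ± 11.4 in control libraries. It was higher than control by 0.90 ± 0.17 with BPS2 (adjusted p = 0.0204) and by 0.72 ± 0.17 with BPS1 (adjusted p = 0.0194). The call with BPS2 was lost without control replicate 1, 2 or 3 or BPS2 replicate 1, 2 or 4 (adjusted p up to 0.0773), and that with BPS1 without control replicate 2 (adjusted p = 0.0595). The NT5E call with BPS1 was also lost with control replicate 1 and BPS1 replicate 4 left out (0.56, adjusted p = 0.0600). In that fit 53 genes of the list were tested, of which 4 rose and 4 fell with BPS2, and 3 rose and 5 fell with BPS1. Of all genes 5.78% then rose and 3.76% fell with BPS2, and 6.42% rose and 7.33% fell with BPS1.

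CNTFR, a receptor subunit for ciliary neurotrophic factor, averaged 3749 ± 51.4 in BPS2, 4305 ± 416 in BPS1 and 3211 ± 102 in control libraries, and rose by 0.42 ± 0.07 with BPS1 (adjusted p = 0.00246). GPC3, a glypican, averaged 286 ± 38.4 in BPS2, 363 ± 65.4 in BPS1 and 214 ± 53.5 in control libraries, and rose by 0.77 ± 0.17 with BPS1 (adjusted p = 0.0152, or 0.0514 without control replicate 2). CNTN1, a neural adhesion molecule, averaged 6565 ± 164 in BPS2, 6295 ± 953 in BPS1 and 8526 ± 838 in control libraries. It fell by 0.45 with BPS1 (SE 0.11, adjusted p = 0.0209, or up to 0.0659 without control replicate 2, 3 or 4), and its log2 fold change with BPS2 was -0.37 ± 0.11 (adjusted p = 0.149). With control replicate 1 and BPS1 replicate 4 left out, these 3 genes also passed with BPS2, CNTN1 at -0.44 (adjusted p = 0.00014), CNTFR at 0.24 (adjusted p = 0.00383) and GPC3 at 0.60 (adjusted p = 0.0184).

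The other 3 genes that fell with BPS1, CNTN2, RGMA and ULBP1, are named after their values were seen. Their log2 fold changes were -0.51 ± 0.15 for CNTN2 (adjusted p = 0.0490), -0.38 ± 0.10 for RGMA (adjusted p = 0.0407) and -0.56 ± 0.14 for ULBP1 (adjusted p = 0.0243). Each of these calls was lost without single libraries. For CNTN2 it was any 1 library but control replicate 1, with adjusted p up to 0.122. For RGMA it was control replicate 2, 3 or 4, any BPS2 library, or BPS1 replicate 1 or 3, with adjusted p up to 0.112. For ULBP1 it was control replicate 2 or 3 or BPS1 replicate 1 or 2, with adjusted p up to 0.0758. Between BPS2 and BPS1, 2 of the 54 genes tested were higher and 0 lower, where 2.3% of all genes were higher and 1.63% lower. Those higher were ULBP1, by 0.60 ± 0.14 (adjusted p = 0.0283), and ULBP2, by 0.63 ± 0.14 (adjusted p = 0.0270), both surface ligands for natural killer cells. The call for ULBP1 was lost without BPS2 replicate 2 or 3 or BPS1 replicate 1 or 2 (adjusted p up to 0.0946), and that for ULBP2 without BPS2 replicate 1, 3 or 4 or BPS1 replicate 1, 2 or 3 (adjusted p up to 0.0900). CD59 and CD55, the complement regulators missing from blood cells in paroxysmal nocturnal haemoglobinuria, were also looked up after values had been seen. CD59 averaged 98.6 ± 27.5 in BPS2, 89.3 ± 27.8 in BPS1 and 99.4 ± 15.3 in control libraries, and CD55 averaged 422 ± 34.5 in BPS2, 471 ± 82.7 in BPS1 and 378 ± 47.8 in control libraries. Neither passed against control, with adjusted p of 0.971 and 0.730 with BPS2 and 0.696 and 0.211 with BPS1. These are RNA values, and surface protein was not measured.

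On the X chromosome, 9 of the tested genes nearest to PIGA were examined. On one side were GEMIN8 at 1290 kb, NPM1P9 at 484 kb, FANCB at 446 kb, MOSPD2 at 397 kb and ASB9 at 49.0 kb. On the other were VEGFD, PIR, CA5BP1 at 339 kb and CA5B at 353 kb. In limma 0 of the 9 passed in any comparison, and 2 had an unadjusted p under 0.05 with BPS2, 0 with BPS1 and 2 between BPS2 and BPS1, where 11.4%, 22.5% and 17.1% of all genes had one in the same order. Their log2 fold changes lay between -0.23 and 0.72 with BPS2 and between -0.39 and 0.29 with BPS1. VEGFD, the nearest at 10.0 kb, averaged 54.0 ± 16.3 in BPS2, 48.6 ± 19.7 in BPS1 and 60.3 ± 13.2 in control libraries. PIR, at 49.2 kb, averaged 1068 ± 101 in BPS2, 711 ± 178 in BPS1 and 807 ± 154 in control libraries and was 0.61 ± 0.16 higher in BPS2 than in BPS1 (adjusted p = 0.0595). With control replicate 1 and BPS1 replicate 4 left out, PIR and NPM1P9 passed as higher with BPS2, PIR by 0.54 (adjusted p = 0.00992) and NPM1P9 by 0.97 (adjusted p = 0.0330), and 0 of the 9 passed with BPS1. Both were then also higher in BPS2 than in BPS1, PIR by 0.77 (adjusted p = 0.000604) and NPM1P9 by 0.97 (adjusted p = 0.0203).

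**Figure D4:**
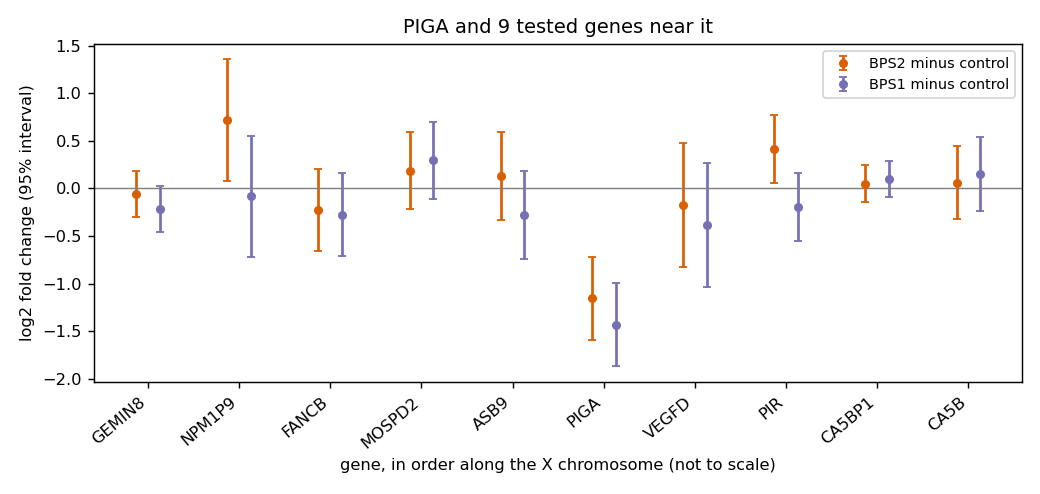
Log2 fold change against control (y axis) of PIGA and 9 tested genes 10.0 to 1290 kb from it, in order along the X chromosome and not to scale. Points are estimates and bars 95% intervals, for BPS2 and for BPS1. PIGA stands at -1.15 and -1.43, while the others lie between -0.39 and 0.72.

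The genes whose values followed PIGA most closely were taken by Pearson's r over the 12 libraries on log2(value + 1), among tested genes with a mean of at least 50. They were SPTSSA with r = 0.970, DDAH1 with 0.947, KANTR with 0.945, TADA1 with 0.941 and MAOA with 0.930. The libraries share their groups, so these values were also computed after removing group means, which gave 0.868 for SPTSSA, 0.820 for DDAH1, 0.720 for KANTR, 0.684 for TADA1 and 0.712 for MAOA. SPTSSA, a small subunit of the enzyme that starts sphingolipid synthesis, averaged 879 ± 34.2 in BPS2, 807 ± 93.3 in BPS1 and 1091 ± 57.5 in control libraries. MAOA, monoamine oxidase A, averaged 6447 ± 241 in BPS2, 4984 ± 647 in BPS1 and 9335 ± 758 in control libraries. DDAH1, an enzyme that breaks down methylated arginine, averaged 313 ± 14.6 in BPS2, 281 ± 34.5 in BPS1 and 382 ± 27.9 in control libraries. Since these genes were taken for their likeness to PIGA, their values are a description with no test.

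**Figure D5:**
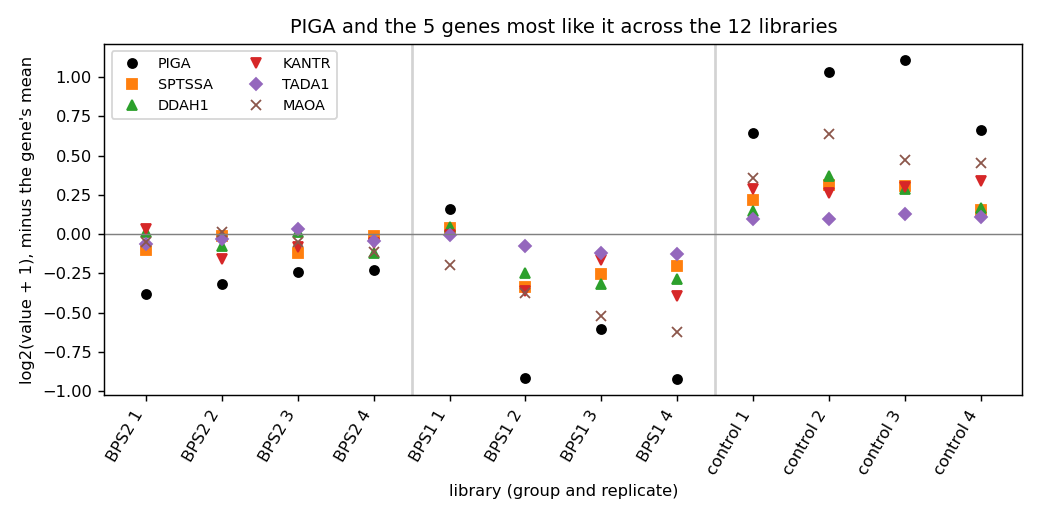
Values on log2(value + 1) minus each gene's mean (y axis) for PIGA and the 5 genes most like it in the 12 libraries (x axis). Black circles are PIGA and the other symbols the 5 genes. All 6 genes stand above their mean in every control library, and in BPS1 replicate 1 PIGA is above its mean while it is below it in the other BPS1 libraries and in all BPS2 libraries.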

How the data were processed

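The authors deposited 1 table of normalized counts, here a signal value per gene and library. Per the submitters' processing notes the tools were Salmon 0.8.2 on GRCh38, FastQC 0.11.7 and DESeq2. How transcripts were summed to genes, from which annotation, is not given in the sources used here. Rows in whole reads within 0.01 of a read were 98.4% of tested genes with 1 transcript, 0.426% of those with 5 or more and 23.2% of all tested genes, so whole reads were not recovered and the planned test on counts was not run. Each library's total divided by its value of 1 read was 29.1 to 31.8 M, an estimate of depth.

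Genes reaching 10 in 4 or more of the 12 libraries were kept. Values were taken as log2(value + 1), which understates the change of low genes. limma 3.58.1 in R 4.3.3 fitted the 12 libraries by group alone, with a mean-variance trend, with two-sided tests and Benjamini-Hochberg adjustment over all genes tested, and a gene passed at an adjusted p under 0.05. The fit was tested on simulated data. Replicate pairs differed beyond sampling noise, with chi-square per row of 1.82 to 18.5, and each library was counted once. No column was left unused.

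The members and gene lists were chosen with earlier results of these data known. Genes named were all members, up to 4 of each other list with the smallest p against control, the 5 most like PIGA, the nearest tested genes on each side of PIGA, up to 5, overlapping genes, NEAT1 and markers of the line such as MYCN; some of these are not reported here, and of genes passing between BPS2 and BPS1 in a list all are named. Positions come from GENCODE release 29, which held 53405 of the 55771 identifiers and may not be the authors' release. Alternatives were pseudocounts of 0.5 and 5, no filter, a mean of at least 50, robust variance, quantile scaling, median-of-ratios scaling, the replicate number as a block, only the 2 groups compared, each library left out, and BPS1 replicate 4 with control replicate 1 left out. Removal of a GC trend was added after seeing the data.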

Additional observations from a re-analysis of the deposited data

Results flagged for a closer look

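Of 42 groups of 4 libraries examined, for the 9 members and the 5 genes most like PIGA, 4 had 1 library far from the others by Dixon's criterion. Chance gives about 1 in 20. PIGC was high in BPS2 replicate 4, at 1910, and in BPS1 replicate 4, at 2364. DPM2 was high in BPS1 replicate 4, at 1873. PIGL was high in control replicate 1, at 389. BPS1 replicate 4 and control replicate 1 are the libraries that stood apart over all genes, and their part in these values was not tested.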

How the results depend on the processing

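Over the alternatives run, 4166 values of single genes kept their direction and their side of the threshold, 195 lost a call and 57 gained one. A further 95 turned sign without passing in either fit, 26 of them values of members. Among these, PIGQ with BPS2 was -0.04 without BPS2 replicate 2, DPM2 with BPS1 was -0.12 and PIGC with BPS1 -0.05 without BPS1 replicate 4, and PIGC between BPS2 and BPS1 was 0.10 with control replicate 1 and BPS1 replicate 4 left out. Correlations of deviations between same-numbered libraries ran from -0.272 to 0.103, so no pairing by replicate number was seen. Control replicate 1 and BPS1 replicate 4, which stood apart, gave 0.424 with each other. Such libraries weigh on these correlations, which therefore cannot tell if the libraries were paired. With the number as a block, genes passing were 118 for BPS2 against control, 1067 for BPS1 against control and 447 for BPS2 against BPS1, against 247, 1760 and 803 without it. Under the block the members passing with BPS2 were 0, where PIGA, picked for its values, was the 1 counted without it, other pathway genes were 1 with BPS1 and 1 between BPS2 and BPS1, and anchored protein genes were 0 with BPS2, 4 with BPS1 and 1 between them. Fitting only the groups compared gave 328 genes with BPS2, 907 with BPS1 and 542 between BPS2 and BPS1. Other pathway genes were then 1 with BPS2, 1 with BPS1 and 2 between BPS2 and BPS1. Anchored protein genes were 3, 4 and 0 in the same order. With no filter, genes passing were 182 with BPS2, 1267 with BPS1 and 594 between BPS2 and BPS1. Other pathway genes were then 2 with BPS1 and 2 between BPS2 and BPS1, and anchored protein genes 0 between them. Removing the GC trend gave 2 anchored protein genes with BPS2, where 311 of all genes passed. With control replicate 1 and BPS1 replicate 4 left out, genes passing were 1923 with BPS2, 2772 with BPS1 and 3498 between BPS2 and BPS1. Other pathway genes were then 7 with BPS2 and 13 between BPS2 and BPS1, anchored protein genes 8 with BPS2 and 7 between them, and members 2 between them.

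Leaving out 1 library at a time gave 113 (without BPS2 replicate 3) to 535 (without BPS1 replicate 4) genes with BPS2, 1103 (without control replicate 2) to 2359 (without BPS1 replicate 4) with BPS1, and 471 (without BPS1 replicate 3) to 1756 (without BPS1 replicate 4) between BPS2 and BPS1. Members passing were 0 (without control replicate 2 or 3 or BPS2 replicate 2) to 1 with BPS2, 1 to 2 with BPS1 and 1 to 1 between BPS2 and BPS1. The member counted with BPS2 was PIGA, and PIGA was counted with BPS1 whichever library was left out. PIGA was picked for its values against control, so these counts describe it and are no test of it. Other pathway genes were 0 to 1 with BPS2, 1 (without control replicate 2) to 5 (without BPS1 replicate 4) with BPS1, and 1 (without BPS2 replicate 4) to 9 (without BPS1 replicate 4) between them. Anchored protein genes were 0 to 4 with BPS2, 1 to 7 with BPS1 and 0 to 3 between them. PIGA differed between BPS2 and BPS1 by 0.16 to 0.52. The cause of these shifts was not tested. The count test planned on whole reads was not run, and the table does not give the read depth behind PIGA.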
